A study of Homo sapiens with 24 samples.

Results

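The baseline transcriptome of HT29 was compared with that of HCT116 in cells that kept a wild-type (WT) CTNNB1 genotype. Of 24 RNA-seq libraries in the series, the comparison used the 8 labelled CTNNB1 wild-type in these lines, which were 4 HT29 libraries and 4 HCT116 libraries. HT29 was represented by clones 11 and 40 and HCT116 by clones 4 and 6, each sequenced in rounds A and B. Values per library are given in the order 11A, 11B, 40A and 40B for HT29 and 4A, 4B, 6A and 6B for HCT116. No agent was added to either line, and all cells were grown in the same DMEM medium with fetal calf serum. The WT clones had passed through the same CRISPR/Cas9 editing and single-cell cloning as the knock-out (KO) clones and had kept the CTNNB1 alleles of their line, without the deletion. The KO clones of both lines lost a CTNNB1 exon on both alleles, with a frame shift and a premature stop codon. Their libraries were used as further libraries of the same lines. They also entered an interaction that set the line difference in WT clones against that in KO clones. The third line of the series, SW480, enters only as 2 counts of called genes. A line here stands for 2 clones, so that the p-values measure the spread among these 8 libraries and not among independent isolates of a tumour type.

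HT29 and HCT116 are both established lines grown from human colorectal carcinomas. Both run the WNT/β-CATENIN pathway without a ligand, but by different lesions, because HT29 carries inactivating mutations of APC and HCT116 a stabilizing mutation of CTNNB1 itself. They also differ in their other driver genes, among them BRAF and SMAD4, which are mutant in HT29, and DNA mismatch repair is defective in HCT116. In the colon epithelium, WNT activity keeps stem and progenitor cells in the crypt base, and absorptive and goblet cells arise as this activity falls. HT29 is known as a line that can take on goblet and enterocyte features, and HCT116 as a poorly differentiated one. These facts are background and were not read from the libraries.

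The 8 libraries held 22297049 to 29068378 reads on genes, with a median of 26619958.5 in HT29 and 28278503 in HCT116. CTNNB1 read 6019, 6067, 5883 and 6113 normalized counts in HT29 and 12410, 12800, 10512 and 11952 in HCT116. All libraries labelled WT thus held high counts, against means of 299.8 ± 34.1 (SD, n = 4) and 218 ± 28.9 (SD, n = 4) in the KO libraries of HT29 and HCT116. The lines did not overlap for CTNNB1 itself (log2 fold change -0.98 ± 0.09, adjusted p = 7.4e-06), although the difference stayed inside the fold threshold used below. It passed that threshold, at -1.07 and -1.04, without HCT116 clone 6 or its library 6A, and at -1.02 with equal library totals. The epithelial markers EPCAM, CDH1, KRT8, KRT18 and KRT19 were above 1000 normalized counts in all 8 libraries. CDX2 was near 0 in HT29 and the brush border gene VIL1 near 0 in HCT116, as given with their values below. Of 20 markers of blood, fibroblast, endothelial, muscle, Schwann and liver cells, 9 had no more than 3 reads in any library. Their summed level was 50.7 to 382 in HT29, mostly CD14, and 469 to 545 in HCT116, mostly COL1A1. The part of these markers in the results was not tested, and in bulk RNA fewer cells of a kind and less RNA per cell cannot be told apart.

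A total of 15668 genes passed the filter of at least 10 normalized counts in at least 4 of the 8 libraries. A gene was called where limma gave a Benjamini-Hochberg adjusted p under 0.05 and an absolute log2 fold change over 1, on the scale of log2(normalized count + 1), with HT29 minus HCT116 as the direction. By this rule 5780 genes were called, 36.9% of those tested. Of these, 2668 were higher in HT29 (17.0% of tested genes) and 3112 higher in HCT116 (19.9%). This fit took the rounds of a clone as separate samples. With each clone averaged to 1 value the counts were 2389 and 2767, and with the clone as a random effect 2555 and 3011. The libraries of the lines did not overlap for 5610 of the called genes (97.1%), beside 9238 of all tested genes (59.0%). A gap of more than 3 log2 units was found for 750 genes toward HT29 and 1329 toward HCT116. Many called genes were at or below the floor of 3 reads per library in a line. A total of 306 genes called higher in HT29 had no more than 3 reads in any HCT116 library, and 614 genes called higher in HCT116 had no more than 3 in any HT29 library. Among genes of at least 1000 normalized counts in the higher line the balance was the other way, with 931 higher in HT29 and 755 higher in HCT116 of 6386. Long non-coding RNAs were called more often (625 of 1276, 49.0%) than protein-coding genes (4660 of 12640, 36.9%). These classes were not matched for level, and of genes of at least 1000 normalized counts in the higher line 26.4% were called. A gene that is silent in a line enters the test only through the other line, so that the counts for gene lists below describe the members that passed and are read beside these shares. Some of these list counts moved with the processing, mostly under the filter of at least 10 in every library.

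**Figure D1:**
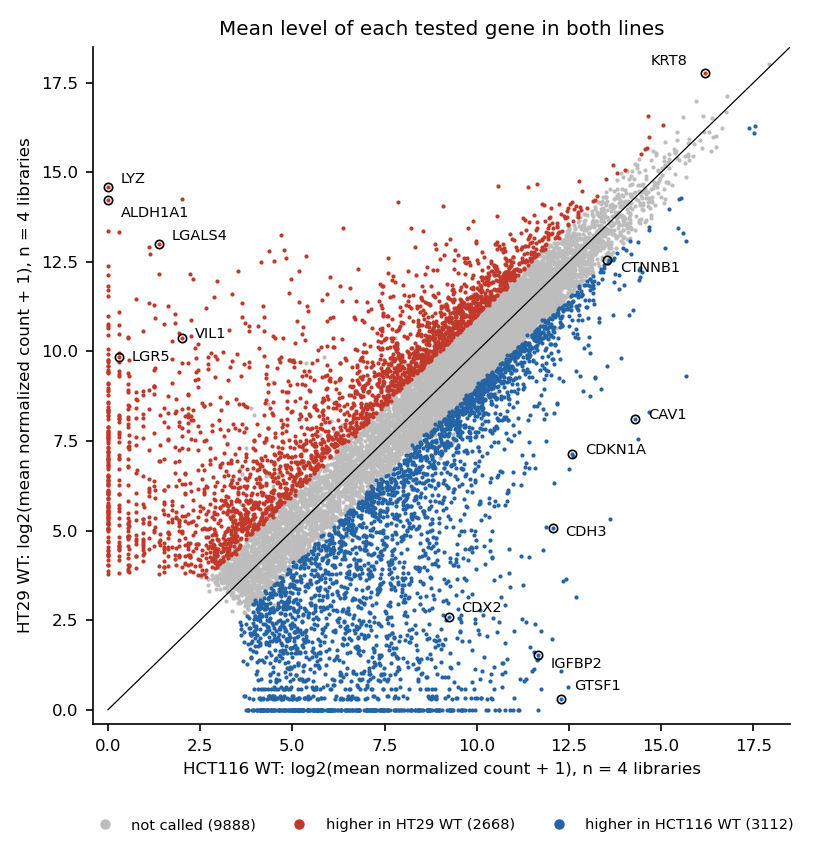
Mean normalized count of each tested gene in the 4 HCT116 WT libraries (x axis) and the 4 HT29 WT libraries (y axis), both as log2 of the mean plus 1, with the diagonal as a line. The 2668 genes called higher in HT29 are red, the 3112 called higher in HCT116 blue, and both columns of points at 0 are genes without reads in a line, among them LYZ and ALDH1A1.

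Distances between libraries put the lines far apart. The root mean square log2 distance over tested genes was 0.414 to 0.495 between the rounds of a clone, 0.514 to 0.636 between libraries of the different HCT116 clones, and 0.890 to 0.955 between those of the different HT29 clones. Between the lines it was 2.30 to 2.47. The line accounted for 88.5% of the sum of squares, the clone within a line for 8.13% and the round for 3.4%. HT29 clones 11 and 40 were therefore less alike than HCT116 clones 4 and 6, and several of the genes below had an HT29 value set largely by the clone. In the same kind of fit 6468 of 16275 genes were called between HT29 and SW480 and 6719 of 16470 between HCT116 and SW480.

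The largest rises in HT29, among genes of at least 1000 normalized counts, were in LYZ, ALDH1A1, TM4SF1, TM4SF4, UGT1A10, GPX2, FOXQ1, TSPAN8, QPCT and FFAR4. LYZ, which encodes lysozyme, an antibacterial enzyme of Paneth and myeloid cells, read 23376, 23627, 24350 and 27355 in HT29 and had no read in any HCT116 library, which makes it at least 8841-fold higher in HT29 against a floor of 3 reads per library (adjusted p = 5.1e-12). ALDH1A1, a retinaldehyde dehydrogenase that makes retinoic acid, read 17978, 28782, 9512 and 20232 and again had no read in HCT116, so that it was at least 6853-fold higher. In GRCh37 coordinates LYZ lies at chr12:69742161-69748014 and ALDH1A1 at chr9:75515587-75695358. The selenoprotein gene GPX2, a glutathione peroxidase of the gut epithelium, read 17670, 22897, 15288 and 22372 in HT29 and 1.83, 2.78, 3.70 and 3.81 in HCT116 (ratio of means 6453, 95% counting interval 3774 to 12119). UGT1A10, a glucuronosyltransferase that conjugates drugs and hormones, read 5487, 5388, 4885 and 5710 against 0 reads, although the UGT1A genes share their last exons and the split of reads among them is uncertain. FFAR4, a receptor for long-chain fatty acids, read 3058, 3424, 3614 and 3482 and was at least 1216-fold higher. The tetraspanin-like gene TM4SF4 differed between the HT29 clones, with 17791, 18351, 3016 and 2850, and had no read in HCT116. FOXQ1, a forkhead transcription factor, read 6065, 5245, 8278 and 7410 in HT29 and 0, 0, 0 and 4.76 in HCT116 (log2 fold change 12.07 ± 0.53, adjusted p = 4.6e-08). Libraries without overlap between the lines were a condition for naming these 10 genes and the 10 that follow.

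The largest falls were in GTSF1, MAGEB2, PDE4B, MAGEA3, HTR7, COL12A1, GJC1, CPA4, HS6ST2 and NLRP2. GTSF1, a germ cell gene of the piRNA pathway at chr12:54849734-54867386 (GRCh37), read 5470, 5284, 4609 and 4758 in HCT116 and 0.960, 0, 0 and 0 in HT29, where the 4 libraries together held 1 read. MAGEB2, a cancer-testis gene of the X chromosome, read 5832, 5653, 5626 and 5645 in HCT116 and 0, 1.01, 0 and 1.25 in HT29 (ratio of means 10041, 95% counting interval 2780 to 82911, adjusted p = 8.0e-10). The cAMP phosphodiesterase gene PDE4B read 3129, 4136, 2741 and 3022 in HCT116 and the serotonin receptor gene HTR7 read 2270, 2049, 2435 and 2311, and neither had a read in HT29. They were at least 1030-fold and at least 717-fold higher in HCT116. GJC1, a connexin, CPA4, a carboxypeptidase, HS6ST2, a heparan sulfate sulfotransferase, and NLRP2, a NOD-like receptor, also had no HT29 read and were at least 638-, 703-, 607- and 556-fold higher in HCT116. COL12A1, a fibril-associated collagen, separated the HCT116 clones, with 1627, 2149, 6781 and 9514, and read 0, 0, 1.98 and 2.51 in HT29.

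The transcription factors of gut identity did not move as a block. Of 30 factors on the list 23 were tested, and 12 were called higher in HT29 and 5 higher in HCT116, with a median log2 fold change of 1.47 against -0.05 over all tested genes. CDX2, the homeobox factor that sets intestinal fate, read 2.88, 9.12, 1.98 and 6.26 in HT29 and 697, 619, 592 and 525 in HCT116 (log2 fold change -6.81 ± 0.37, adjusted p = 1.4e-07). The near absence of CDX2 held in both HT29 clones, while its paralog CDX1 had no read in any of the 8 libraries. KLF4, a factor of post-mitotic surface cells, read 144, 116, 123 and 105 in HT29 and 1301, 1184, 1083 and 684 in HCT116 (log2 fold change -3.08 ± 0.21, adjusted p = 7.4e-07). In the other direction, HNF4G, a nuclear receptor of enterocytes, read 1578, 1305, 645 and 680.2 against 124, 121, 97.9 and 83.8 (log2 fold change 3.20 ± 0.30, adjusted p = 7.4e-06). GATA6, a zinc finger factor of endodermal epithelia, read 704, 636, 390.2 and 352 against 132, 102, 127 and 117 (log2 fold change 2.06 ± 0.24, adjusted p = 3.7e-05). HNF4A, a nuclear receptor of the gut and liver, showed how far the HT29 clones could part, with 808, 812, 32.6 and 65.1 in HT29 and 272, 320.2, 225 and 177 in HCT116, so that clone 11 lay above HCT116 and clone 40 below it. Its fit gave -0.32 ± 1.04 (adjusted p = 0.81), and the sign turned to 1.73 without clone 40 and stayed at -2.37 without clone 11, both past the thresholds.

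Genes of absorptive cells, where they were expressed at all, were more often called higher in HT29. Only 14 of 41 list members passed the filter, of which 9 were called higher in HT29 and 2 higher in HCT116. Of those 9, 5 had no more than 3 reads in any HCT116 library. The median log2 fold change was 4.92. It was 4.75 with genes of no more than 3 reads in any library of the lower line held at their bound. VIL1, which bundles actin in microvilli, read 1977, 2149, 449 and 764 in HT29 and 3.67, 1.86, 1.85 and 4.76 in HCT116 (log2 fold change 8.16 ± 0.50, adjusted p = 3.9e-07). LGALS4, a galectin of the gut epithelium, read 12465, 13219, 3057 and 4042 against 1.83, 2.78, 1.85 and 0 (ratio of means 5069, 95% counting interval 2460 to 12609, adjusted p = 1.1e-07). Both genes were several-fold higher in clone 11 than in clone 40, and both clones lay far above HCT116. KRT20, the keratin of differentiated surface cells, was higher in clone 40, with 2032, 1542, 5791 and 5313 against 104, 78.9, 58.2 and 70.4 (log2 fold change 5.34 ± 0.42, adjusted p = 3.0e-06). PHGR1, a small gut-specific protein gene, had no read in HCT116 and 67.2, 81.1, 90.9 and 117 in HT29. FABP1, the fatty acid binding protein of enterocytes, was seen only in clone 11, at 343, 189, 0 and 0, and was not tested. The carbonic anhydrase gene CA2 read 1062, 925, 78.0 and 96.5 in HT29 and 788, 656, 1494 and 1273 in HCT116 and did not pass the test (log2 fold change -1.76 ± 0.90, adjusted p = 0.12), but was called lower in HT29, at -2.37 or -3.51, without library 11A or clone 11, and the difference was -0.01 without clone 40 and -1.12 without library 40A. CDH17, an intestinal cadherin, and ISX, a homeobox factor, were at or near the floor in both lines.

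Of 10 CEACAM adhesion genes 3 were tested, of which CEACAM1 and CEACAM6 were called higher in HT29 and CEACAM19 was not called. CEACAM1 read 1519, 1180, 8048 and 8613 in HT29 and 20.2, 18.6, 3.70 and 0 in HCT116 (log2 fold change 8.97 ± 1.11, adjusted p = 1.4e-04), and CEACAM6 read 145, 148, 475 and 361 against 0.917, 1.86, 0 and 0 (ratio of means 407, 95% counting interval 139 to 1974, adjusted p = 7.4e-07). CEACAM5, the carcinoembryonic antigen, read 12.5, 9.12, 150.2 and 104 in HT29 against a single read in HCT116 and was not tested. These genes resemble each other in sequence, so that the split of reads among them is uncertain.

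Goblet and other secretory genes were called for 93.8% of tested members. Of 32 genes 16 were tested, with 12 higher in HT29 and 3 higher in HCT116 (median log2 fold change 6.61, or 5.95 at the bounds). Of those 12, 7 had no more than 3 reads in any HCT116 library, and 1 of the 3 had no more than 3 in any HT29 library. Such genes entered the test only through the line where they were high. SPDEF, the ETS factor that drives goblet cell maturation, read 234, 274, 631 and 803 in HT29 and 2.75, 0, 0.924 and 0.952 in HCT116 (ratio of means 419.7, 95% counting interval 179.8 to 1292, adjusted p = 5.0e-07). AGR2, a disulfide isomerase that folds mucins, read 1751, 2074, 675 and 1230 in HT29 and 0, 0, 0 and 0.952 in HCT116, where the only trace was 1 read (adjusted p = 1.2e-08). TFF1, a trefoil peptide, read 58.6, 34.5, 106 and 132 against no HCT116 read and was at least 29.6-fold higher. The gel-forming mucin MUC2 stayed low in HT29 at 5.76, 1.01, 22.7 and 6.26 with no read in HCT116, and TFF3, the trefoil peptide secreted with it, was at the floor in both lines. ATOH1, the factor that commits cells to the secretory lineage, had no read in HT29 and 4.59, 4.64, 4.62 and 0.952 in HCT116. The 3 members called higher in HCT116 were FCGBP, a mucus protein, and the Notch ligands DLL1 and DLL4.

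Only 4 of 15 mucin genes were tested. MUC13, a membrane mucin of the gut, read 880.5, 773, 65.2 and 50.1 in HT29 and 0, 1.86, 6.47 and 5.71 in HCT116 (log2 fold change 5.99 ± 1.08, adjusted p = 0.0011), again with clone 11 far above clone 40. MUC5AC, a gel-forming mucin of the stomach, read 50.9, 23.3, 72.1 and 52.6 against 0, 0, 0 and 3.81 (log2 fold change 4.99 ± 0.57, adjusted p = 3.2e-05). MUC1 had the opposite direction, with 4.80, 13.2, 4.94 and 18.8 against 37.6, 38.1, 23.1 and 23.8 (log2 fold change -1.64 ± 0.44, adjusted p = 0.0082), but its call was lost with the clone as a random effect and, at -1.30, without clone 4. Of 17 enteroendocrine genes 5 were tested, and the summed level of the list was 81.4 to 109 in HT29 and 328 to 597 in HCT116. None of the tested members was higher in HT29, 3 were higher in HCT116 (SCG2, SCG5 and TPH1), and the hormone cell marker CHGA had no read in any library.

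**Figure D2:**
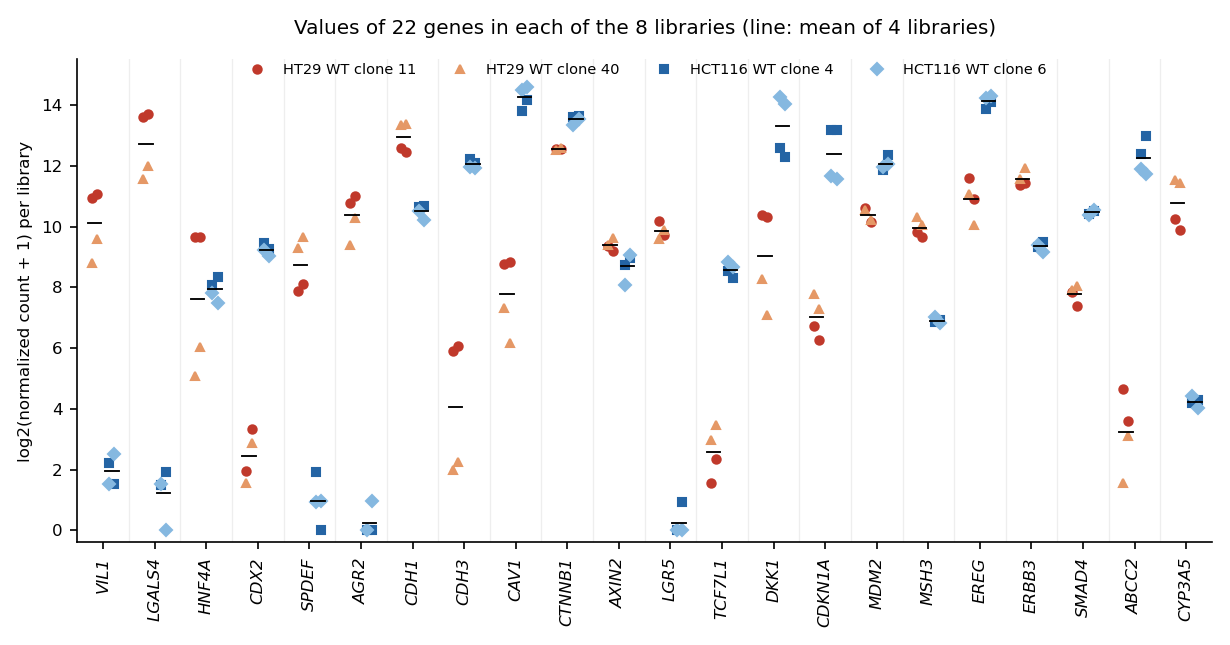
Log2 of the normalized count plus 1 of 22 genes in each of the 8 libraries, with a mark per library coloured by clone and a line at the mean of the 4 libraries of a line. VIL1, LGALS4, SPDEF, AGR2 and LGR5 sit near 0 in HCT116, CDX2, TCF7L1 and ABCC2 near the bottom in HT29, and HNF4A separates HT29 clone 11 from clone 40.

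Promoter letters were read for factors named above, from RefSeq promoters of GRCh38.p14 that span 250 bases before to 50 after each start. Of the named genes, 174 of 245 had a promoter in that table. Promoters on chromosomes 8 and Y were left out of these counts, and 10880 of the 15668 tested genes had a promoter. Over their 15837 promoters, the HNF4 letters CAAAGTCCA were found in 48 (0.303%). They were in 12 of 2701 promoters of genes higher in HT29 (0.444%) and in 7 of 3182 of those higher in HCT116 (0.220%). The CDX letters TTTATNG, which on the opposite strand can overlap a TATA box, were in 6.27%, 6.44% and 7.01%. The TCF/LEF letters CTTTGAT or CTTTGTT were in 5.11%, 6.41% and 4.90%. All letters were searched on both strands, and a match is a description and not a bound site. The 250 bases before the start are shown for 4 genes with values in this text, chosen because each holds the letters of a factor that differs between the lines or of the pathway both lines run, with the matched letters in capitals on the strand of the gene. MUC13 (chr3:124934752-124935001, minus strand) holds HNF4 letters, TM4SF4 (chr3:149474447-149474696, plus strand) holds CDX letters and then TCF/LEF letters, DKK1 (chr10:52314031-52314280, plus strand) holds TCF/LEF letters, and CDX2 (chr13:27969316-27969565, minus strand) holds CDX letters.
MUC13: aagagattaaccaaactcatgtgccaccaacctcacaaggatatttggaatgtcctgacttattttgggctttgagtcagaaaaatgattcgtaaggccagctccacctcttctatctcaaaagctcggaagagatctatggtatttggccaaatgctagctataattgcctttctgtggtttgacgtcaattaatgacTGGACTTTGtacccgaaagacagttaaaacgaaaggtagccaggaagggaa
TM4SF4: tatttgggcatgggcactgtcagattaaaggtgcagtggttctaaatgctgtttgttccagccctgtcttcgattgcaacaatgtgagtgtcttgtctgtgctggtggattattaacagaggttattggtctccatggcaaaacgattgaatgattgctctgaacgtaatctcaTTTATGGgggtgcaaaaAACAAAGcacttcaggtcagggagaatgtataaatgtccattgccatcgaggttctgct
DKK1: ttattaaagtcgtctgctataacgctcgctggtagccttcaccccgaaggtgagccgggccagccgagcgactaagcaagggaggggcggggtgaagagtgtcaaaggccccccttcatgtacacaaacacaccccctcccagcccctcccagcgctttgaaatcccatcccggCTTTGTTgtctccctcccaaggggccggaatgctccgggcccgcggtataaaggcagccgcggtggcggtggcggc
CDX2: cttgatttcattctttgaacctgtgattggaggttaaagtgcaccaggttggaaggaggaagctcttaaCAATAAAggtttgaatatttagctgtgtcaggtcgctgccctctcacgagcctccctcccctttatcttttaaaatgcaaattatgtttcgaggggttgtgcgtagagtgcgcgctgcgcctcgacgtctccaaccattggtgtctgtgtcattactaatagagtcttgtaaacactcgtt

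Epithelial junction genes were measured in full, since 38 of 38 members were tested. HT29 was higher for 15 of them and HCT116 for 3, with a median log2 fold change of 0.82. CDH1, the E-cadherin of adherens junctions, read 6089, 5633, 10410 and 10586 in HT29 and 1616, 1655, 1472 and 1181 in HCT116 (log2 fold change 2.42 ± 0.22, adjusted p = 7.5e-06). The tight junction gene CLDN2 read 19824, 14350, 2384 and 2662 against 31.2, 49.2, 12 and 7.62 (log2 fold change 8.30 ± 0.85, adjusted p = 4.5e-05) and its relative CLDN3 2384, 3574, 2396 and 3430 against 261, 150.3, 197 and 187 (log2 fold change 3.88 ± 0.20, adjusted p = 1.1e-07). GRHL2, a factor that maintains epithelial junctions, read 2038, 2069, 2478 and 2646 against 682, 841, 641 and 654 (log2 fold change 1.71 ± 0.14, adjusted p = 2.3e-06). EPCAM was 1.72-fold higher in HT29 and inside the fold threshold (log2 fold change 0.75 ± 0.17, adjusted p = 0.0033), except without clone 40, where its log2 fold change of 1.06 was called. CDH3, the P-cadherin, was the clearest exception. It read 4740, 4343, 4004 and 3938 in HCT116 and 58.6, 65.9, 2.96 and 3.76 in HT29, where clone 40 was near the floor (log2 fold change -8.0 ± 0.96, adjusted p = 1.2e-04).

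Keratins were split between the lines, with 6 of 14 tested members higher in HT29 and 5 higher in HCT116. KRT8 and KRT18, the partner keratins of simple epithelia, read 224043, 263773, 185880 and 220947 and 96863, 124386, 79442 and 90210 in HT29. In HCT116 they read 86062, 71769, 70884 and 70711 and 29556, 23452, 25352 and 24589, so that both were several-fold higher in HT29 (1.57 ± 0.12 and 1.91 ± 0.14 on the log2 scale, adjusted p = 1.6e-06 and 1.2e-06). KRT19 differed by less than the thresholds (log2 fold change -0.20 ± 0.13, adjusted p = 0.21). KRT7, a keratin of ductal epithelia, read 70.1, 102, 96.8 and 114 against 714, 416, 468 and 267 (log2 fold change -2.21 ± 0.29, adjusted p = 8.0e-05). KRT23 read 55.7, 43.6, 10.9 and 16.3 against 163, 135, 120.1 and 150.4 (log2 fold change -2.41 ± 0.46, adjusted p = 0.0011), or -1.50 without HT29 clone 40.

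Mesenchymal genes and regulators of the epithelial-mesenchymal transition were more often called higher in HCT116. Of 31 genes 19 were tested, 12 of them higher in HCT116 and 2 higher in HT29, with a median log2 fold change of -2.84. CAV1, the coat protein of caveolae, read 14454, 18494, 23051 and 24802 in HCT116 and 432, 455, 158 and 70.2 in HT29 (log2 fold change -6.51 ± 0.57, adjusted p = 1.6e-05). AXL, a receptor tyrosine kinase, read 1194, 1050, 1949 and 2338 against 43.2, 31.4, 218 and 99.0 (log2 fold change -4.37 ± 0.56, adjusted p = 1.2e-04), and FN1, which encodes fibronectin, read 189, 234, 389 and 368 against 41.3, 28.4, 38.5 and 21.3 (log2 fold change -3.13 ± 0.30, adjusted p = 9.5e-06). The repressor ZEB1 was low in both lines and higher in HCT116, with 38.5, 86.3, 74.8 and 118 against 10.6, 6.08, 15.8 and 7.52 (log2 fold change -2.84 ± 0.39, adjusted p = 1.3e-04). SNAI2 and TWIST1 had no HT29 read and read 22.0, 13.9, 9.24 and 5.71 and 9.17, 9.28, 36.0 and 30.5 in HCT116. The intermediate filament gene VIM, the usual mesenchymal marker, stayed at 0.988 to 3.84 in HT29 and 9.28 to 32.3 in HCT116, and CDH2, the N-cadherin, was at the floor in both lines. TGFBI, an extracellular matrix protein induced by TGF-β, ran against the list with 1608, 1570, 2398 and 2190 in HT29 and 0.917, 1.86, 0.924 and 1.90 in HCT116 (ratio of means 1386, 95% counting interval 637 to 3778).

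Genes of the WNT/β-CATENIN pathway differed by member more than by pathway. Of 16 tested feedback genes 5 were higher in HT29 and 6 higher in HCT116, with a median log2 fold change of 0.14. AXIN2, the most widely used target gene, read 659, 590.0, 671 and 779 in HT29 and 427, 500.2, 266 and 531 in HCT116, without overlap but inside the fold threshold (log2 fold change 0.69 ± 0.21, adjusted p = 0.017). The ubiquitin ligases that remove WNT receptors were higher in HT29. ZNRF3 read 3115, 2265, 2944 and 2796 against 618, 697, 673 and 681 (log2 fold change 2.05 ± 0.12, adjusted p = 2.9e-07), and RNF43 read 4537, 3971, 3613 and 3753 against 2195, 2537, 1082 and 1089 (log2 fold change 1.30 ± 0.27, adjusted p = 0.0021), although the call for RNF43 was lost without HCT116 clone 6, at 0.74. The secreted antagonist DKK1 was higher in HCT116, with 6206, 5036, 19633 and 16774 against 1346, 1279, 309 and 137 (log2 fold change -4.27 ± 0.81, adjusted p = 0.0018), and both lines were split by clone. NKD1, an inhibitor of Dishevelled, read 251, 252, 317 and 281 against 85.5, 29.4, 5.93 and 3.76 (log2 fold change -4.0 ± 0.80, adjusted p = 0.0017), or -2.42 without HT29 clone 40. NOTUM, a lipase that inactivates WNT ligands, read 159, 76.1, 141 and 86.6 against 1.92, 4.05, 34.6 and 16.3 (log2 fold change -3.51 ± 0.71, adjusted p = 0.0016), or -2.17 without clone 11. Both genes were higher in HCT116 in every library. SP5, a transcriptional target, lay above HCT116 in clone 11 and below it in clone 40, with 95.1, 97.3, 5.93 and 7.52 against 40.4, 28.8, 23.1 and 27.6 (log2 fold change -0.15 ± 0.88, adjusted p = 0.89). Without clone 40 its log2 fold change was 1.68 and without clone 11 it was -1.98, both called.

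Of 10 tested genes of the TCF/LEF and TLE list, which holds the DNA-binding partners of β-CATENIN and their corepressors, 3 were higher in HT29, 3 higher in HCT116 and 4 not called. TCF7 read 2222, 2101, 3580 and 3614 in HT29 and 774, 792, 929 and 901 in HCT116 (log2 fold change 1.72 ± 0.19, adjusted p = 3.0e-05). TCF7L2 was the reverse, with 1579, 1117, 1569 and 1256 against 3021, 4056, 4084 and 5157 (log2 fold change -1.55 ± 0.18, adjusted p = 3.3e-05), and TCF7L1 was nearly confined to HCT116, with 1.92, 4.05, 6.92 and 10.0 against 373, 316, 451 and 406 (log2 fold change -6.0 ± 0.38, adjusted p = 4.6e-07). LEF1 had no read in HCT116 or HT29 clone 40 and read 11.5 and 12.2 in clone 11. Among the Groucho corepressors, TLE4 read 207, 117, 162 and 213 in HT29 with no read in HCT116, and TLE2 read 45.1, 40.5, 23.7 and 16.3 against 435, 332, 549.8 and 454 (log2 fold change -3.86 ± 0.32, adjusted p = 3.3e-06). The destruction complex, which marks β-CATENIN for degradation, was called for 3 of 13 members. AXIN1 was higher in HT29, with 2629, 2848, 2394 and 2865 against 834, 677, 772 and 883 (log2 fold change 1.76 ± 0.12, adjusted p = 7.2e-07), and BTRC and TNKS were higher in HCT116. APC (log2 fold change 0.41 ± 0.23, adjusted p = 0.14) and GSK3B (log2 fold change 0.42 ± 0.14, adjusted p = 0.022) stayed inside the thresholds. Of the WNT ligands, WNT11 read 1478, 2096, 1357 and 1798 in HT29 against 11.9, 13, 24 and 14.3 in HCT116 (log2 fold change 6.68 ± 0.24, adjusted p = 8.8e-09). The receptor gene FZD3 read 34.6, 28.4, 189 and 125 against 506, 593, 651 and 712 (log2 fold change -3.11 ± 0.55, adjusted p = 8.3e-04, or -1.98 without clone 11). Of 14 tested receptor genes 6 were higher in HCT116 and 2 higher in HT29. The summed level of the receptor list ran the other way, at 13358 to 20056 in HT29 and 9510 to 11281 in HCT116.

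Intestinal stem cell markers likewise went both ways, with 6 of 17 tested members higher in HT29 and 4 higher in HCT116. LGR5, the receptor that marks crypt base stem cells, read 1151, 842, 769 and 946 in HT29 and was represented by 1 read in HCT116 (adjusted p = 2.6e-09). ASCL2, a stem cell factor, read 53.8, 55.8, 11.9 and 6.26 in HT29 against no HCT116 read, and OLFM4 was seen mainly in clone 11, at 234, 48.7, 1.98 and 0. SOX9 read 4210, 3153, 5074 and 4222 against 1449, 1281, 1212 and 1081 (log2 fold change 1.72 ± 0.16, adjusted p = 6.0e-06). EPHB2, a receptor that positions progenitor cells in the crypt, was higher in HCT116, with 724, 547, 757 and 476 against 45.1, 57.8, 52.4 and 61.4 (log2 fold change -3.49 ± 0.20, adjusted p = 2.0e-07). PROM1, known as CD133, split HT29 by clone, with 2988, 2478, 287 and 214 against 888, 768, 1101 and 999.6, and its log2 fold change of -0.18 (adjusted p = 0.87) became 1.55 without clone 40 and -1.90 without clone 11, both called. CD44 did not differ beyond the spread (log2 fold change -0.20 ± 0.30, adjusted p = 0.58).

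**Figure D3:**
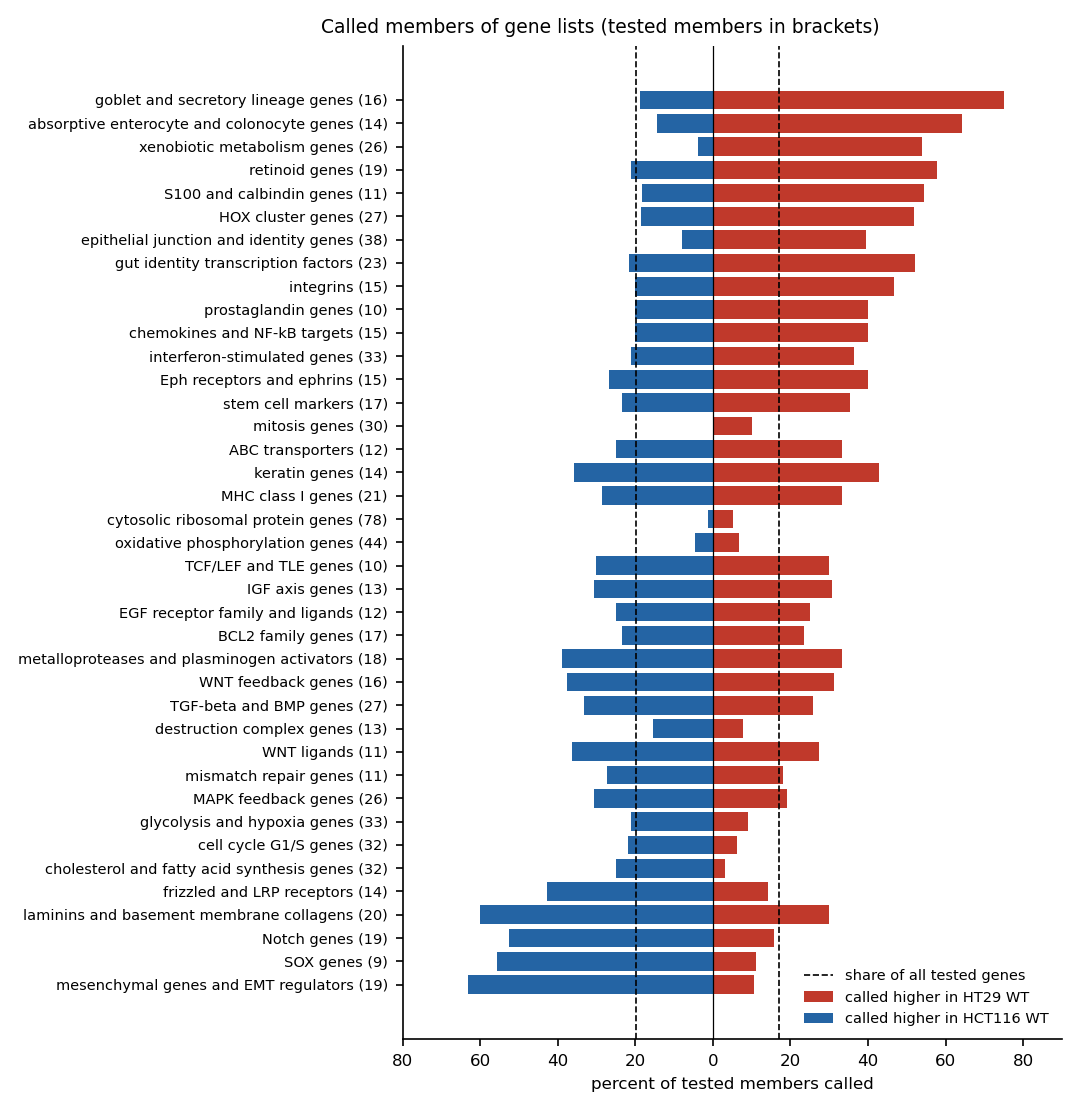
Percent of the tested members of gene lists with at least 9 tested members called higher in HT29 WT (red, right) or in HCT116 WT (blue, left), with the number tested in brackets. Dashed lines mark the shares of all tested genes, 17.0% and 19.9%, and lists are ordered from goblet and secretory genes at the top to mesenchymal genes at the bottom.

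CDKN1A, the cyclin-dependent kinase inhibitor p21, read 9316, 9218, 3230 and 2997 in HCT116 and 106, 76.0, 218 and 157 in HT29 (log2 fold change -5.37 ± 0.47, adjusted p = 8.5e-06), a ratio of means of 44.5. The ubiquitin ligase gene MDM2 read 3681, 5230, 3985 and 4230 against 1557, 1135, 1496 and 1189 (log2 fold change -1.67 ± 0.15, adjusted p = 5.5e-06). TP53INP1 read 595, 882, 226 and 258 against 14.4, 20.3, 14.8 and 11.3 (log2 fold change -4.72 ± 0.42, adjusted p = 5.5e-06) and FDXR, a mitochondrial reductase, 2912, 3173, 1634 and 2169 against 507, 655, 416 and 489 (log2 fold change -2.23 ± 0.22, adjusted p = 1.1e-05). CDKN1A, TP53INP1 and FDXR were all higher in HCT116 clone 4 than in clone 6. The death effector BAX was the other way, with 2926, 3977, 3286 and 3472 in HT29 and 2088, 1608, 1642 and 1456 in HCT116 (log2 fold change 1.01 ± 0.14, adjusted p = 1.3e-04), just past the fold threshold. Its call was lost with equal library totals (0.97), without clone 6 (0.89) and without libraries 4B (0.99), 6A (1.00), 6B (0.94) or 11B (0.94).

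Of 11 tested genes of the mismatch repair list 2 were higher in HT29 and 3 higher in HCT116. MSH3, which recognizes insertion-deletion loops, read 904, 809, 1260 and 1072 in HT29 against 114, 121, 129 and 112 in HCT116 (log2 fold change 3.06 ± 0.16, adjusted p = 1.2e-07). MSH6, which recognizes mismatches, was higher in HCT116 (log2 fold change -1.09 ± 0.12, adjusted p = 2.4e-05), a call lost without clone 6 (-0.95) or library 6B (-0.99).

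Cell cycle genes of the G1/S step were called for 9 of 32 members (28.1%, beside 36.9% of all tested genes). Among genes of at least 1000 normalized counts in the higher line the share called was 26.4%. Of these 7 were higher in HCT116, 21.9% of the members and near the 19.9% of all tested genes. CCND1, which encodes cyclin D1, read 17068, 16904, 27864 and 24291 in HCT116 and 4706, 3988, 4367 and 3405 in HT29 (log2 fold change -2.36 ± 0.18, adjusted p = 1.6e-06). CDKN2A, which encodes the inhibitor p16, read 3529, 5448, 5797 and 5790 in HT29 and 1992, 1711, 1575 and 2199 in HCT116 (log2 fold change 1.44 ± 0.18, adjusted p = 5.9e-05). Mitosis genes gave 3 calls of 30, all higher in HT29, and PLK1 was one of the 5 highly expressed genes with the smallest difference, at 6699, 6384, 5383 and 6362 against 5858, 6048, 6571 and 6297 (ratio of means 1.00). The others were MANBAL, HOMER1, ADRM1 and TMEM183A. In the BCL2 family the BH3-only gene BIK read 387, 277, 427 and 399 in HCT116 against 23, 25.3, 23.7 and 12.5 (log2 fold change -4.10 ± 0.26, adjusted p = 4.6e-07), and BCL2 read 61.5, 60.3, 68.4 and 51.4 against 12.5, 15.2, 26.7 and 21.3 (log2 fold change -1.67 ± 0.28, adjusted p = 4.3e-04).

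The ERK pathway, in which BRAF acts, was read through its feedback genes, and of 26 tested members 5 were higher in HT29 and 8 higher in HCT116. The phosphatase gene DUSP5 read 2623, 2032, 5354 and 4420 in HCT116 and 389.8, 233, 285 and 195 in HT29 (log2 fold change -3.65 ± 0.32, adjusted p = 5.8e-06). DUSP4 read 4149, 3105, 3448 and 2645 against 246, 238, 1111 and 1238 (log2 fold change -2.62 ± 0.57, adjusted p = 0.0036), with a call that was lost when each clone was averaged to 1 value and a log2 fold change of -1.49 without clone 11. DUSP6, the ERK phosphatase most used as a readout, was 1.29-fold higher in HT29 and not called (log2 fold change 0.37 ± 0.11, adjusted p = 0.015). SPRY2, an inhibitor of receptor signaling, read 1720, 1466, 463 and 402 against 131, 147, 108 and 122 (log2 fold change 2.7 ± 0.45, adjusted p = 5.3e-04, or 1.77 without clone 11), while SPRY4 did not pass the test (log2 fold change 0.02 ± 0.13, adjusted p = 0.88). Transcripts of BRAF (log2 fold change 0.20 ± 0.20, adjusted p = 0.41) stayed inside the thresholds.

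Of 12 tested genes of the EGF receptor family and ligand list 3 were higher in HT29, 3 higher in HCT116 and 6 not called. The ligand EREG read 14902, 17733, 19113 and 20199 in HCT116 and 3123, 1921, 2130 and 1055 in HT29 (log2 fold change -3.22 ± 0.28, adjusted p = 5.2e-06), and AREG read 10909, 8454, 11573 and 9798 against 3200, 3713, 537 and 368 (log2 fold change -3.03 ± 0.74, adjusted p = 0.007), although the call for AREG was lost when each clone was averaged and its log2 fold change was -1.55 without clone 40. The receptor ERBB3 read 2657, 2774, 3038 and 3868 in HT29 against 644, 727, 675 and 574 (log2 fold change 2.22 ± 0.14, adjusted p = 4.5e-07), and EGFR read 5652, 2712, 6024 and 3851 against 1365, 1743, 1249 and 1275 (log2 fold change 1.64 ± 0.24, adjusted p = 2.0e-04). ERBB2 was inside the fold threshold (log2 fold change 0.65 ± 0.20, adjusted p = 0.014).

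In the TGF-β and BMP pathways 7 of 27 tested members were higher in HT29 and 9 higher in HCT116. SMAD4, the common mediator, read 230.4, 165, 239 and 261 in HT29 and 1360, 1465, 1342 and 1497 in HCT116 (log2 fold change -2.67 ± 0.15, adjusted p = 2.3e-07). BMP7 was nearly confined to HCT116, with 261, 264, 347 and 279.9 against 0, 2.03, 0 and 0 (ratio of means 568, 95% counting interval 157 to 4690, adjusted p = 8.0e-08). BMP4 was high in HT29 and in HCT116 clone 4 but not clone 6, at 9150, 10282, 10239 and 10415 against 10661, 10608, 2235 and 2557 (log2 fold change 0.99 ± 0.54, adjusted p = 0.14), and was called at 2.07 without clone 4 and at 1.35 without library 4B. The receptor gene TGFBR2 read 3472, 2383, 2441 and 2306 against 984, 1169, 1514 and 1488 (log2 fold change 1.04 ± 0.18, adjusted p = 5.8e-04), close enough to the fold threshold that the call ended with equal library totals (1.00) and without clone 4 (0.80), clone 11 (0.90), library 4A (0.92) or library 11A (0.90). Notch genes were called more often toward HCT116, with 10 of 19 tested members against 3. Of those 10, 3 had no more than 3 reads in any HT29 library. NOTCH3 read 689.9, 551, 456 and 332 against 34.6, 45.6, 30.6 and 33.8 (log2 fold change -3.74 ± 0.25, adjusted p = 5.7e-07), whereas HES1, the main Notch target of the crypt, read 1355, 1177, 1377 and 1451 in HT29 against 319, 197, 204 and 129 (log2 fold change 2.72 ± 0.24, adjusted p = 4.4e-06).

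The HOX clusters, which record position along the body axis, gave 14 of 27 tested genes higher in HT29 and 5 higher in HCT116. HOXB9 read 6247, 8496, 5840 and 5939 in HT29 against 472, 373, 722 and 659.7 (log2 fold change 3.60 ± 0.22, adjusted p = 3.0e-07). HOXD13, the most posterior gene of its cluster, read 54.7, 72.0, 13.8 and 18.8 against 1.83, 0, 0 and 0 (ratio of means 86.8, 95% counting interval 24 to 717, adjusted p = 6.1e-05). HOXB13, a posterior gene of the distal gut, read 362, 239, 262 and 215 in HCT116 and 133, 138, 35.6 and 67.6 in HT29 (log2 fold change -1.68 ± 0.40, adjusted p = 0.0045), a call lost with clones averaged and without clone 40, at -0.96. HOXA9 was inside the fold threshold (log2 fold change -0.65 ± 0.21, adjusted p = 0.02) unless clone 11 was left out, where -1.06 was called. Of 9 tested SOX genes, SOX9 was the only one higher in HT29 and 5 were higher in HCT116.

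Of 21 tested MHC class I genes 7 were higher in HT29 and 6 higher in HCT116. HLA-C read 409, 442, 412 and 501 in HT29 against 3543, 2880, 3483 and 3690 in HCT116 (log2 fold change -2.94 ± 0.12, adjusted p = 2.1e-08), and HLA-B read 50.9, 55.8, 30.6 and 18.8 against 749, 533, 693 and 493 (log2 fold change -4.05 ± 0.33, adjusted p = 2.7e-06). These genes are polymorphic and alike, so that their alignment can differ with the alleles of a line. NLRC5, the transactivator of the class I genes, read 272, 254, 253 and 200.9 in HCT116 and 7.68, 16.2, 2.96 and 5.01 in HT29 (log2 fold change -4.98 ± 0.40, adjusted p = 2.7e-06). B2M, the shared light chain, was higher in HT29 and inside the fold threshold (log2 fold change 0.85 ± 0.13, adjusted p = 3.3e-04), except at 1.03 without clone 11. Interferon-stimulated genes gave 12 of 33 higher in HT29 and 7 higher in HCT116. IFI27 read 171, 107, 791 and 356 in HT29 against 20.2, 13, 10.2 and 4.76 (log2 fold change 4.52 ± 0.61, adjusted p = 1.2e-04), and IFITM3, which blocks viral entry, read 5724, 4704, 4287 and 3701 in HCT116 against 491, 528, 274 and 183 (log2 fold change -3.75 ± 0.32, adjusted p = 4.5e-06). The neutrophil chemokine CXCL8 read 145, 164, 1270 and 767 against 13.8, 9.28, 7.39 and 3.81 (log2 fold change 5.47 ± 0.70, adjusted p = 8.9e-05), CXCL1 read 65.3, 79.1, 116 and 110.2 against 9.17, 7.42, 6.47 and 11.4 (log2 fold change 3.27 ± 0.28, adjusted p = 4.5e-06), and LCN2, an iron-scavenging lipocalin, read 1684, 2132, 3856 and 4100 against 5.50, 4.64, 7.39 and 7.62 (log2 fold change 8.58 ± 0.31, adjusted p = 7.9e-09).

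Xenobiotic metabolism was tilted to HT29, with 14 of 26 tested members higher there and 1, CES3, higher in HCT116. Of those 14, 4 had no more than 3 reads in any HCT116 library. CYP3A5, a cytochrome P450 of drug oxidation, read 1228, 943, 2987 and 2760 in HT29 and 17.4, 18.6, 20.3 and 15.2 in HCT116 (log2 fold change 6.55 ± 0.36, adjusted p = 1.5e-07). AKR1C1, an aldo-keto reductase with near-identical relatives and therefore an uncertain split of reads, read 453, 607, 731 and 972 against 4.59, 5.57, 2.77 and 3.81 (log2 fold change 7.03 ± 0.29, adjusted p = 1.9e-08). UGT1A6, which shares exons with UGT1A10, had no read in HCT116 and 539, 618, 14.8 and 33.8 in HT29, mainly in clone 11. The efflux transporters were divided. ABCG2 read 1118, 1359, 1914 and 2931 against 58.7, 63.1, 61.9 and 59.0 (log2 fold change 4.79 ± 0.26, adjusted p = 1.7e-07) and ABCC3 10341, 8301, 10504 and 13035 against 523, 523, 248 and 188 (log2 fold change 4.95 ± 0.33, adjusted p = 8.4e-07), both higher in HT29. ABCC2 read 5395, 8147, 3849 and 3434 in HCT116 and 24, 11.2, 1.98 and 7.52 in HT29, a ratio of means of 466 (log2 fold change -9.03 ± 0.57, adjusted p = 8.4e-07).

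Retinoid genes were called for 15 of 19 tested members, 11 of them higher in HT29. Of those 11, 5 had no more than 3 reads in any HCT116 library, and 1 of the 4 higher in HCT116 had no more than 3 in any HT29 library. The retinaldehyde dehydrogenases differed in direction, with ALDH1A1 without a read in HCT116 as given above and ALDH1A3 higher in HCT116, at 1674, 1222, 1884 and 1196 against 79.7, 78.1, 389 and 574 (log2 fold change -2.91 ± 0.66, adjusted p = 0.0043), a call lost with clones averaged and a log2 fold change of -1.63 without clone 11. RARRES1, a retinoid-induced gene, read 156, 197, 933 and 1275 in HT29 and 0, 0, 0.924 and 0 in HCT116 (ratio of means 2771, 95% counting interval 497 to 109432, adjusted p = 2.1e-06). In prostaglandin metabolism both the synthase PTGS2, with 239, 131, 998 and 942 against 20.2, 48.3, 29.6 and 15.2 (log2 fold change 3.95 ± 0.66, adjusted p = 5.8e-04), and the degrading dehydrogenase HPGD, with 1053, 754, 1010 and 1156 against 9.17, 7.42, 7.39 and 0 (log2 fold change 7.57 ± 0.66, adjusted p = 6.0e-06), were higher in HT29.

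Of the genes that face the matrix, 7 of 15 tested integrins were higher in HT29 and 3 higher in HCT116. ITGB6, the epithelial partner of the integrin that activates TGF-β, read 3604, 2465, 1404 and 1255 in HT29 with 1 read in HCT116 (adjusted p = 7.3e-09), and ITGA6 read 9887, 6549, 22664 and 18748 against 2628, 2830, 3390 and 3247 (log2 fold change 2.10 ± 0.35, adjusted p = 5.5e-04). Laminins and basement membrane collagens were called in 18 of 20, 12 of them higher in HCT116. Of those 12, 5 had no more than 3 reads in any HT29 library. The summed level of the list ran the other way, at 32568 to 60314 in HT29 and 18394 to 20722 in HCT116. COL17A1, the hemidesmosomal collagen, was higher in HT29 at 2429, 1647, 5284 and 5681 against 246, 312, 56.4 and 48.5 (log2 fold change 4.77 ± 0.70, adjusted p = 4.2e-04). Among proteases, MMP7, an epithelial metalloprotease, read 16011, 7969, 847 and 286 in HT29 against 33.9, 47.3, 20.3 and 8.57 (log2 fold change 6.61 ± 1.24, adjusted p = 0.0017, or 4.35 without clone 11), and the kallikrein KLK6 read 12953, 12491, 21247 and 21600 against 707, 598, 445 and 432 (log2 fold change 4.95 ± 0.23, adjusted p = 5.3e-08). The urokinase gene PLAU read 682, 464, 789 and 696 in HCT116 against 21.1, 15.2, 14.8 and 11.3 (log2 fold change -5.31 ± 0.24, adjusted p = 4.4e-08). The calcium-binding gene S100P read 2637, 3735, 5150 and 6902 in HT29 and 3.67, 7.42, 1.85 and 1.90 in HCT116 (log2 fold change 9.99 ± 0.40, adjusted p = 1.7e-08). S100A4 was high only in clone 40, with 2462, 3082, 47044 and 47868 against 2040, 1668, 1409 and 1007 (log2 fold change 2.95 ± 1.03, adjusted p = 0.034), and its log2 fold change was 0.89 without clone 40 and 5.00 without clone 11. The S100A4 call was lost with clones averaged, without a filter, without clone 40, clone 4 (3.26) or clone 6 (2.63), and without any single library of HCT116 or of HT29 clone 40 (2.26 to 3.10). IGFBP2, which binds insulin-like growth factors, read 4139, 2956, 2718 and 3212 in HCT116 and 0.960, 1.01, 2.96 and 2.51 in HT29 (ratio of means 1750, 95% counting interval 849 to 4353, adjusted p = 1.4e-09), and IGFBP6 read 4056, 4520, 7859 and 7391 in HT29 against 1228, 712, 1202 and 934 (log2 fold change 2.52 ± 0.25, adjusted p = 1.3e-05).

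Of 33 cancer-testis genes 19 had no read in HT29 and 18 had none in HCT116. Only 6 were tested, 5 of them higher in HCT116 and none in HT29, and the summed level of the list was 23 to 38 in HT29 and 9348 to 10109 in HCT116. MAGEA3 read 3707, 3209, 3499 and 3228 in HCT116 and 0, 2.03, 0 and 0 in HT29, and MAGEA6, whose sequence is close enough to leave the split of reads uncertain, read 99.1, 84.5, 73.9 and 44.7 and 0, 2.03, 1.98 and 2.51. PRAME read 372, 361, 340.0 and 333 against 0, 1.01, 0.988 and 0 (ratio of means 703, 95% counting interval 195 to 5803, adjusted p = 1.5e-08).

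Genes of protein synthesis, respiration and mitosis were called less often than the 36.9% of all tested genes. They were also called less often than the 26.4% of genes of at least 1000 normalized counts in the higher line. The lists were not matched for level. Of 78 cytosolic ribosomal protein genes 5 were called (6.41%), of 44 oxidative phosphorylation genes 5 (11.4%) and of 30 mitosis genes 3. Glycolysis and hypoxia genes gave 10 calls of 33 (30.3%), 7 of them higher in HCT116 (21.2% of members). Cholesterol and fatty acid synthesis gave 9 of 32 (28.1%), 8 of them higher in HCT116 (25.0% of members), among them FASN, SCD, FADS1, FADS2, MVD, MSMO1 and ACSS2. Of all tested genes 19.9% were called higher in HCT116.

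Differences between clones of a line reached the size of those between lines for some genes. DNAJC15, a mitochondrial co-chaperone, read 0, 0, 279.6 and 304 in HT29 and 825, 831, 868 and 858 in HCT116, and PUDP, a pseudouridine phosphatase of the X chromosome, read 0, 0, 230.2 and 209 against 984, 1007, 1011 and 1169. COBL, an actin nucleator, read 319, 267, 0.988 and 0 against 557, 509, 904 and 778. Each was silent or nearly so in 1 HT29 clone and present in the other, and the calls (log2 fold change -5.63 ± 2.02, adjusted p = 0.038, log2 fold change -6.13 ± 1.92, adjusted p = 0.022 and log2 fold change -5.04 ± 1.92, adjusted p = 0.047) were lost under DESeq2, under edgeR, with clones averaged and without a filter. Without clone 11 and without clone 40 the log2 fold change was -1.53 and -9.72 for DNAJC15, -2.24 and -10.02 for PUDP, and -8.89 and -1.19 for COBL. All 3 calls were also lost without HCT116 clone 4 or clone 6 (-6.20 to -4.71), those for DNAJC15 and COBL without any single HCT116 library (-5.64 to -4.90), that for DNAJC15 without library 11A or 11B (-4.26 each), that for PUDP without 11B (-4.83), and that for COBL without 40A (-3.92) or 40B (-3.59). In HCT116 the clones parted for NFIB, AQP3 and LNCAROD. The transcription factor NFIB read 203, 249.7, 12.9 and 2.86 in HCT116 and 762, 625, 1281 and 1027 in HT29 (log2 fold change 4.45 ± 1.28, adjusted p = 0.015), and the water channel AQP3 read 1015, 654, 78.5 and 32.4 against 3994, 2391, 8706 and 4703 (log2 fold change 4.44 ± 1.07, adjusted p = 0.0063), and both calls were lost with clones averaged. Without clone 6 the log2 fold change of NFIB was 1.98 and that of AQP3 2.45, without clone 4 that of NFIB was 6.93, and the calls were lost for NFIB without clone 11 (4.82) or 40 (4.09) and for AQP3 without clone 40 (3.91). The long non-coding RNA LNCAROD read 23.9, 20.4, 354 and 257 in HCT116 and 0, 1.01, 1.98 and 0 in HT29.

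The KO clones gave the same contrast in 8 libraries that shared no sample with the WT clones. Of 5449 called genes that were also tested in the KO clones, 5264 (96.6%) had the same sign there, against 83.7% of all genes tested in both, and 3901 were called in the same direction and 22 in the opposite one. LYZ had a KO log2 fold change of 13.31, LGALS4 of 13.79, VIL1 of 10.75 and AGR2 of 13.59. On the side of HCT116, CDX2 had -5.40, GTSF1 -12.09, CDKN1A -4.13 and IGFBP2 -9.56.

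Whether the distance between the lines differed between WT and KO clones was tested as an interaction over 16 libraries. WT and KO libraries came from different clones, so that genotype and clone cannot be told apart here. Called genes numbered 590 of 17005 (3.47%), 229 of them above 0 and 361 below 0, of which 382 were also called between the WT clones. This count rested on treating the 4 libraries of a group as separate samples. It ran from 329 without HCT116 KO clone 44 to 1655 without HT29 KO clone 28, was 231 with the clone as a random effect, and 3 with each clone averaged (CST4, KRT20 and TRIB1, with 1170 genes at an unadjusted p under 0.05). KRT20 averaged 3669 ± 2192 in HT29 WT, 16524 ± 4968 in HT29 KO, 77.8 ± 19.2 in HCT116 WT and 0.484 ± 0.558 in HCT116 KO (SD, n = 4 each), so that the lines were farther apart in KO clones. The difference of the line differences was -8.12 ± 0.58 (adjusted p = 1.4e-06). CST4, a salivary cystatin, was at the floor in both WT groups and averaged 1470 ± 512 (SD, n = 4) in HT29 KO (-9.39 ± 0.68, adjusted p = 1.4e-06). RNF43 averaged 3968 in HT29 WT and 4148 in HT29 KO but 1726 and 60.2 in HCT116 (-4.77 ± 0.42, adjusted p = 1.2e-05). The lines came closer in KO clones for WNT11, with 1682 in HT29 WT and 9.29 in HT29 KO against 15.8 and 8.10 in HCT116 (6.49 ± 0.64, adjusted p = 1.8e-05). TGFBI had 1941 and 96.6 in HT29 WT and KO (5.21 ± 0.49, adjusted p = 1.3e-05). CALB2, a calcium-binding protein, averaged 19.7 ± 11.1 in HCT116 WT and 1260 ± 1051 in HCT116 KO (SD, n = 4 each) against 7150 and 6288 in HT29 (5.83 ± 0.83, adjusted p = 7.6e-04).

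**Figure D4:**
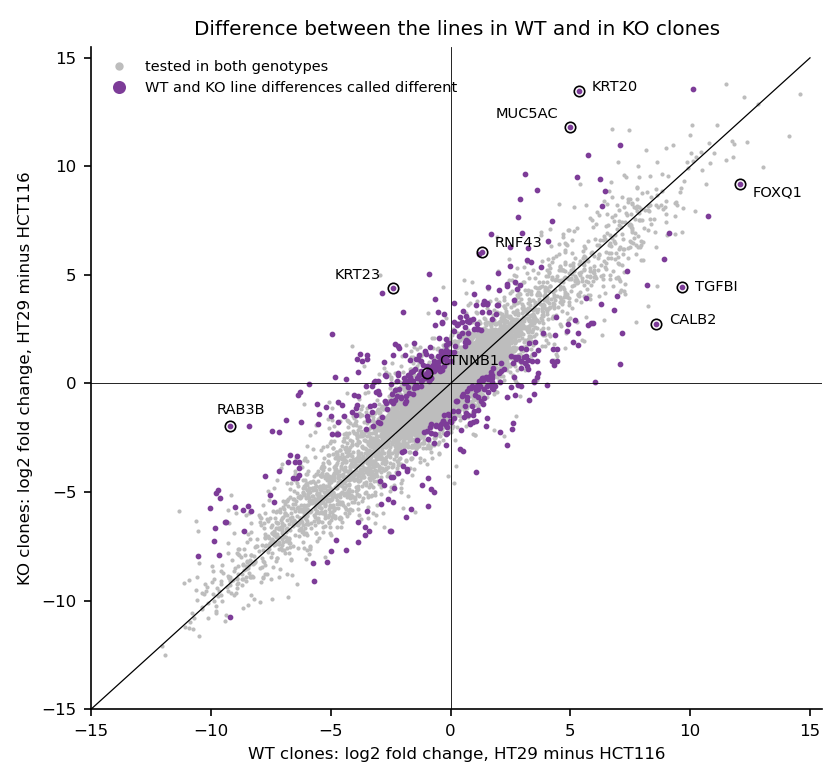
Log2 fold change of HT29 minus HCT116 in the WT clones (x axis) and in the KO clones (y axis) for genes tested in both, with the diagonal as a line. Genes whose WT and KO line differences were called different are purple, with KRT20 and RNF43 above the diagonal and TGFBI and CALB2 below it.

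Differences were not spread evenly over the genome. The median log2 fold change of tested genes was highest on chromosome 13 (0.51, 286 genes), followed by 15 (0.36), 20 (0.36), 11 (0.33) and 7 (0.32), and lowest on 14 (-0.50, 506 genes), 22 (-0.45), 8 (-0.39) and 17 (-0.38). On chromosome 8 the median was -0.62 without HT29 clone 40 and -0.22 without clone 11, so that its size depended on the clone. In GRCh37 windows of 10 Mb with at least 20 tested genes, the lowest medians were -1.46, -1.29 and -1.24 in the first 3 windows of chromosome 8. In the window from 20000001 to 30000000, 40 of 63 tested genes were called higher in HCT116 and 1 higher in HT29. The highest were 0.87 on chromosome 2 from 160000001 to 170000000 and 0.82 on chromosome 13 from 110000001 to 120000000. No test was made of these medians.

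**Figure D5:**
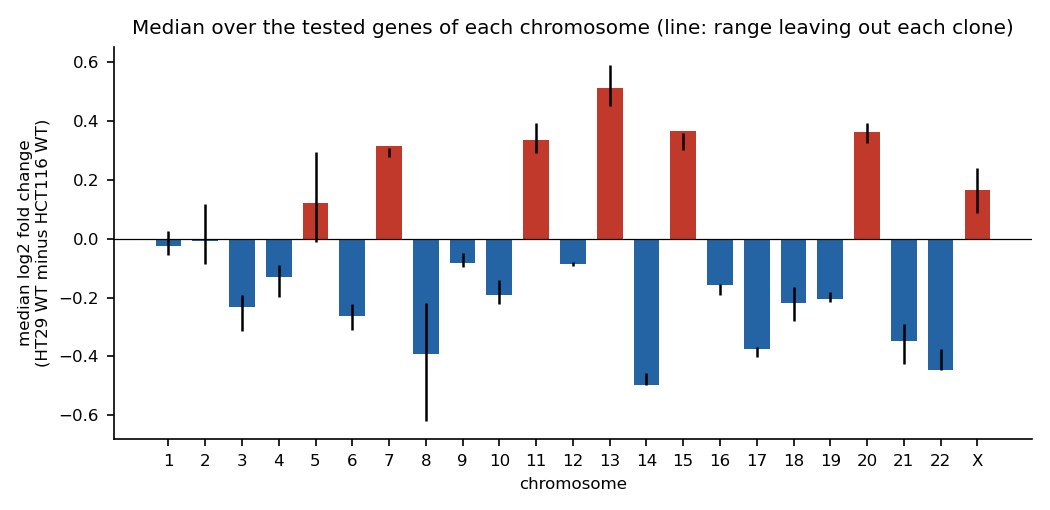
Median log2 fold change (HT29 WT minus HCT116 WT) of the tested genes on each chromosome, red above 0 and blue below, with a black line for the range when each clone is left out in turn. Chromosome 13 has the highest median (0.51) and chromosome 14 the lowest (-0.50), and chromosome 8 has the widest range (-0.62 to -0.22).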

How the data were processed

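RNA of HT29 and HCT116 WT clones was captured with oligo-dT and made into libraries with the TruSeq RNA v2 kit, which does not mark strand. The strand setting of the counting and the annotation release are not given in the sources used here. According to the submitters' processing notes, the authors used STAR 2.7.5b on GRCh37 and featureCounts 2.0.1. The values deposited per library are signal, namely gene counts divided by a DESeq2 (2.11.40.6) size factor of that library. Per-line tables of the authors' own comparison of KO with WT clones were not used. Dividing each library by its smallest step gave whole reads for 100% of values (tolerance 0.01 read), and no pair of libraries agreed within sampling noise. No column of another sample was present (0 left out). Coordinates came from GENCODE lifted to GRCh37 and symbols from a table of gene names, with a symbol for 95.8% of 58051 identifiers.

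Differences were tested with limma 3.58.1 (R 4.3.3), with the trend and robust options of its variance moderation, on log2(normalized count + 1), for genes of at least 10 in at least 4 libraries, 4 HT29 against 4 HCT116 libraries and no covariate, and called at an adjusted p (Benjamini-Hochberg) under 0.05 and an absolute log2 fold change over 1. Fold changes of low genes are understated by the pseudocount of 1. The interaction was fitted on 16 libraries. A floor of 3 reads per library and the counting intervals, which are exact 95% Poisson intervals, cover counting error only, since reads carry no molecular identifiers. On simulated counts for 15268 genes with 200 changed, the script called 100% of changes of 4-fold or more and made 6 false calls. The simulated libraries were drawn independently, without clones. That run therefore checks the script and gives no error rate for the real fit. In the real libraries the clone within a line accounted for 8.13% of the sum of squares. Alternatives were DESeq2 1.42.0 and edgeR 4.0.16 on the whole reads, the clone as a random effect or averaged, the round as a block, other pseudocounts (0.1 and 5), filters and scalings, and leaving out each library or clone. Rounds did not pair libraries of different lines, so no pairing entered the fit. In the fits without a library or a clone the genes tested were kept.

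The genes of the text came from 245 chosen by rule. These were marked genes of 45 lists (1215 of 1218 entries matched), the 10 largest rises and falls of called genes with a mean of at least 1000 in the higher line and no overlap, the 3 called genes per line that differed most between its clones at a mean of at least 100, the 5 genes of at least 1000 in both lines with the smallest difference and the 5 largest called interactions each way at a mean of at least 500 in a group. Some genes and a list that holds them are not reported here. Other genes named from a count were chosen after their values were seen. The members and lists were chosen with earlier results of these data known. Promoter sequences are RefSeq's on GRCh38.p14.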

Additional observations from a re-analysis of the deposited data

Results flagged for a closer look

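In 31 genes of the text the difference between the lines was not the same in WT and KO clones by the interaction test in limma (adjusted p under 0.05 and a difference over 1 on the log2 scale). Beyond those described above, the WT difference lay below the KO difference for CDH17 (-5.98), PHGR1 (-2.39), AGR2 (-3.46), MUC5AC (-6.84), KRT19 (-1.76), KRT23 (-6.81), TCF7L2 (-1.65), CTNNB1 (-1.44), TP53INP1 (-2.40), DUSP6 (-1.84), TGFBR2 (-1.49), BMP4 (-3.15), HLA-C (-1.11) and PDE4B (-6.29). It lay above the KO difference for SNAI2 (3.97), AXL (3.31), LGR5 (4.79), EPHB2 (2.39), CD44 (1.74), SOX9 (1.64), TLE2 (2.53), HOXD13 (5.71), CXCL1 (4.03), ITGB6 (3.03) and FOXQ1 (2.86). The genes described above were CST4 (-9.39), KRT20 (-8.12), RNF43 (-4.77), WNT11 (6.49), CALB2 (5.83) and TGFBI (5.21). With each clone averaged to 1 value, CST4 and KRT20 kept their call and the other 29 did not.

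Dixon's criterion, on the gap to the nearest library over the range, is passed in about 1 in 20 tests by chance for independent values. The libraries of a line are rounds of 2 clones, so that this rate need not hold here. By this criterion a library stood apart from the other 3 of its line in 9 of 267 tests. They were KRT8 in HCT116 4A (86062 normalized counts), DUSP6 in HCT116 6A (1372), TGFBR2 in HT29 11A (3472), BMP4 in HT29 11A (9150), HOXB9 in HT29 11B (8496), CDKN2A in HT29 11A (3529), MAGEB2 in HCT116 4A (5832), PUDP in HCT116 6B (1169) and MANBAL in HCT116 6B (1194).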

How the results depend on the processing

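Between the WT lines, the 2668 genes higher in HT29 and 3112 higher in HCT116 stayed within 1.5 times their size under every alternative but the filter of at least 10 in every library, which removed genes silent in a line and left 1744 and 1581. Without a filter they were 3632 and 4431. Leaving out a library gave 2599 to 2743 and 3034 to 3144, and leaving out a clone 2526 to 2906 and 2910 to 3350. Of the 129 called genes named in the text, 114 were called in every alternative in which they were tested and 15 lost a call in at least 1, while none reversed. A turned sign that came with a call was found for HNF4A (1.73), PROM1 (1.55) and SP5 (1.68) without HT29 clone 40, none of them called with all libraries, and 65 further turned signs came with no call on either side. Across other scalings and tools the share of calls higher in HT29 was 44.2% to 48.2%, against 46.2%.

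The interaction count of 590 genes, whose line difference was called different between WT and KO clones, was 899 by DESeq2 and 499 by edgeR with TMM. It was 231 with the clone as a random effect, 3 with clones averaged and 326 with at least 10 in every library. Leaving out a library gave 446 to 653. Without a clone it was 329 (HCT116 KO 44), 356 (HCT116 WT 4), 360 (HCT116 WT 6), 1655 (HT29 KO 28), 997 (HT29 KO 38) and 942 (HT29 WT 11). The causes were not tested. Of the counts of called members per gene list, 53 moved by over 1.5 times and 1117 did not under other settings (37 of the 53 with at least 10 in every library), 27 and 333 on leaving out a clone, and 19 and 701 on leaving out a library.

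With the round as a replicate block the counts were 2654, 3084 and 532, and of the genes named COBL lost its call (adjusted p = 0.059, limma). Deviations of same-numbered rounds correlated at -0.24 to 0.064 between clones of different lines, 0.149 between the HCT116 clones and 0.171 between the HT29 clones, and the rounds were not taken to pair the lines. For genes at 3 reads or fewer in both lines a difference was not detectable at this depth.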
